A study of Oryza sativa with 3 samples.

Results

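Expansins are small wall proteins that loosen plant cell walls at acidic pH without cutting the wall polymers, so that turgor can stretch the wall. Alpha expansins act on the contacts between cellulose and matrix glycans, and beta expansins, a group that is large in grasses, include relatives of the grass pollen allergens. In rice, expansin transcripts are known from growing tissue such as internodes of deepwater plants, coleoptiles and the elongating root, and EXPA17 is known for its part in root hair growth. The genes described here are 10 rice loci chosen by name and locus ID, of which 6 are alpha and 4 are beta expansins. The alpha expansins are EXPA1 (Os04g0228400), EXPA2 (Os01g0823100), EXPA4 (Os05g0477600), EXPA5 (Os02g0744200), EXPA8 (Os01g0248900) and EXPA17 (Os06g0108600). The beta expansins are EXPB2 (Os10g0555700), EXPB3 (Os10g0555900), EXPB4 (Os10g0556100) and EXPB6 (Os10g0555600), and the first digits of each ID give its chromosome. Probes were taken by the locus ID in the probe name, which gave 29 probes of 42427 and 9 loci of 29690. EXPA17 had 0 probes by this rule and was not analysed here. All 29 probes passed the filter on dim probes, and each exceeded background well in each channel of every array.

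Roots of 6-day-old rice seedlings (Oryza sativa, cultivar TN67) grown in darkness were exposed to 1 mM vanadate (V) or to water. Germination took 3 days at 37 °C and growth 3 days at 26 °C, both in darkness. Vanadate is a phosphate analogue and blocks P-type ATPases, among them the proton pumps that acidify the wall. RNA of 1 h and 3 h of exposure was pooled, so every value below averages over both times. Each of 3 biological replicates was hybridised on 1 Agilent array with vanadate RNA in Cy5 and water RNA in Cy3, and 0 arrays had exchanged dyes, so a dye effect common to all arrays cannot be told apart from the treatment. A positive log2 ratio means a higher signal in vanadate than in water.

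Log2 ratios of 31159 tested probes correlated between arrays with Pearson's r of 0.89 to 0.93, as a description across probes that are not independent replicates. Of 22026 tested genes, each represented by its brightest tested probe, 49.8% were called, 29.1% as higher under vanadate and 20.7% as lower (limma with Benjamini-Hochberg adjusted p under 0.05). Rises were 58.5% of calls, against 42.1% with the scanner software's processed signals, where the median log2 ratio of all genes was shifted by -0.14. Replicates 1 and 2 were arrays of the same slide, scanned together, while replicate 3 lay on a slide of its own with a scan of its own, per the file headers. For the labelled tissue, detection was looked at for loci taken, from background knowledge, as markers. All 3 root loci exceeded background well in each channel of every array. Of 4 green shoot loci 0 did, though each exceeded it in some channel, Os12g0274700 on 2 vanadate and 3 water arrays. Since the seedlings grew in darkness, a low signal of green shoot loci cannot show that shoot tissue was absent. The summed level of the root loci was 219386 to 248713 in vanadate and 136029 to 205163 in water, a sum that is mostly Os02g0662000. That locus averaged 0.68 ± 0.11 (SE) and was called higher by its brightest probe, while of its 2 probes 1 was called higher and 1 lower. The other root loci were called lower, Os02g0745100 at 4.17-fold (log2 ratio -2.06) and Os03g0107300 at 2.03-fold (-1.02). The summed level of the green shoot loci was 585, 556 and 694 in vanadate and 553, 520 and 2955 in water on replicates 1, 2 and 3, so the water channel of replicate 3 stood apart. On that array 3 of the 4 shoot loci had log2 ratios of -1.71, -2.93 and -1.70, and over the 3 arrays 0 of 4 were called. The ratios of EXPB3, EXPB2 and EXPA5 below were also largest on replicate 3, and each is given with and without it. Those of EXPA8, EXPA4, EXPA1 and EXPB6 were smallest on replicate 3. The log2 water level of EXPA8 was 11.96 there, against 11.06 and 11.02 on replicates 1 and 2. The part of these markers in the values below was not tested.

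Under vanadate, 5 of the 9 measured expansins rose, 2 fell and 2 were not called. These shares stand beside 29.1% of all tested genes called higher and 20.7% called lower. The 5 that rose were EXPA8, EXPB6, EXPA5, EXPA1 and EXPA2, at 1.29-fold to 2.15-fold, and the 2 that fell were the beta expansins EXPB3 and EXPB2, at 1.86-fold and 1.46-fold lower. The median log2 ratio of the 9 genes was 0.37, beside 0.02 for all tested genes. Every one of the 9 had the same sign on all 3 arrays, and the share of all tested genes that did so was not counted. The counts depended on the setting, with 3 higher under median centring, with processed signals and in the authors' table, and with 2 higher and 0 lower when channels were taken as separate samples. Without replicate 1 there were 5 higher, without replicate 2 there were 4, and without replicate 3 there were 6, EXPA4 being added. In each of these settings 2 were lower. Of the 5 alpha expansins 4 rose and 0 fell, and of the 4 beta expansins 1 rose and 2 fell. Since these are whole roots, fewer cells of a type and less RNA per cell cannot be told apart.

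**Figure D1:**
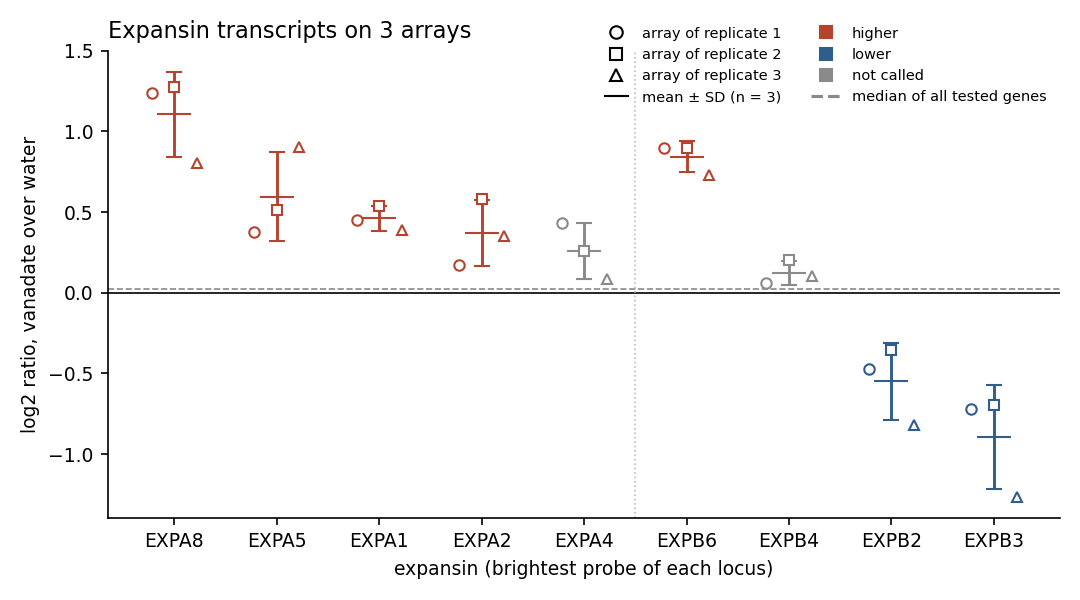
Log2 ratio of vanadate over water for the 9 measured expansins, with 1 open symbol for each array and a bar for the mean ± SD (n = 3). Alpha expansins lie left of the dotted line, all above 0, and beta expansins right of it, where EXPB6 averages 0.84 and EXPB3 -0.89. The dashed line is the median of all tested genes, at 0.02.

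Among the alpha expansins, EXPA8 (Os01g0248900) changed most. It was measured by 1 probe with 1 spot on each array, so agreement between probes could not be looked at. In rice, EXPA8 is known for promoting root growth when overexpressed. On replicates 1, 2 and 3 its log2 channel levels were 12.29, 12.30 and 12.76 in vanadate and 11.06, 11.02 and 11.96 in water. The lowest vanadate level lay above the highest water level. The log2 ratios were 1.24, 1.28 and 0.80, a mean of 1.11 ± 0.11 (SE, adjusted p = 0.000514 in limma), or 2.15-fold higher. That ratio exceeded those of 92.5% of tested genes. EXPA8 was the only 1 of the 9 called at 2-fold or more, a size reached by 8.49% of all tested genes among the rises and 1.51% among the falls. Within the slide of replicates 1 and 2 its mean was 1.26 (adjusted p = 2.22e-05 in limma). This p-value rests on 2 arrays of 1 slide, so spread between slides is left out of it.

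EXPA5 had log2 levels of 11.91, 11.78 and 12.27 in vanadate and 11.53, 11.27 and 11.37 in water, which did not overlap. Its log2 ratios of 0.38, 0.51 and 0.90 averaged 0.60 ± 0.12 (SE, adjusted p = 0.00682 in limma), or 1.51-fold higher. The ratio was highest on replicate 3, and within the slide of replicates 1 and 2 the mean was 0.44 (adjusted p = 0.00855). All 3 of its probes rose, at 0.55 to 0.63. The call of EXPA5 was lost with the processed signals as they stand and in the authors' value table (0.46, adjusted p = 0.0554 in each) and kept once these were centred on each array's median (0.58, adjusted p = 0.0354), a setting added after the data were seen.

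EXPA1 and EXPA2 rose by less. EXPA1 had log2 levels of 13.07, 12.61 and 13.08 in vanadate and 12.62, 12.08 and 12.69 in water. The levels of the 2 channels overlapped across arrays, because replicate 2 was low in both, while the ratios within arrays were 0.45, 0.54 and 0.39. Their mean was 0.46 ± 0.08 (SE, adjusted p = 0.00412 in limma), or 1.38-fold higher, and its other probe gave 0.40. EXPA2 had log2 levels of 14.36, 14.20 and 14.12 in vanadate and 14.18, 13.62 and 13.77 in water. Its ratios of 0.17, 0.58 and 0.35 averaged 0.37 ± 0.10 (SE, adjusted p = 0.0236 in limma), or 1.29-fold higher, and both of its probes were called. Without replicate 2, the array of its highest ratio, EXPA2 had a mean of 0.26 and was not called (adjusted p = 0.171). Under median centring in place of loess neither EXPA1 (adjusted p = 0.098) nor EXPA2 (adjusted p = 0.08) was called, and the same held where channels were treated as separate samples (adjusted p of 0.174 for EXPA1 and 0.179 for EXPA2). EXPA2 also missed the threshold in the authors' value table and with the processed signals (adjusted p = 0.055 in each).

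EXPA4, a gene known in rice for effects on plant height and coleoptile growth, was not called. Its log2 levels were 13.75, 13.70 and 13.76 in vanadate and 13.32, 13.44 and 13.67 in water, and the channels did not overlap. The log2 ratios were 0.43, 0.26 and 0.08, a mean of 0.26 ± 0.09 (SE, adjusted p = 0.0598 in limma) with a 95% interval of 0.03 to 0.49. Unlike the p-value, the interval is not adjusted for multiple testing. Its other probes averaged 0.19 and 0.21 and were not called either. On all 3 probes the ratio was highest on replicate 1 and lowest on replicate 3. Within the slide of replicates 1 and 2, EXPA4 was called higher at 0.35 (adjusted p = 0.0265), as it was when the spread was modelled along intensity (adjusted p = 0.0462).

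**Figure D2:**
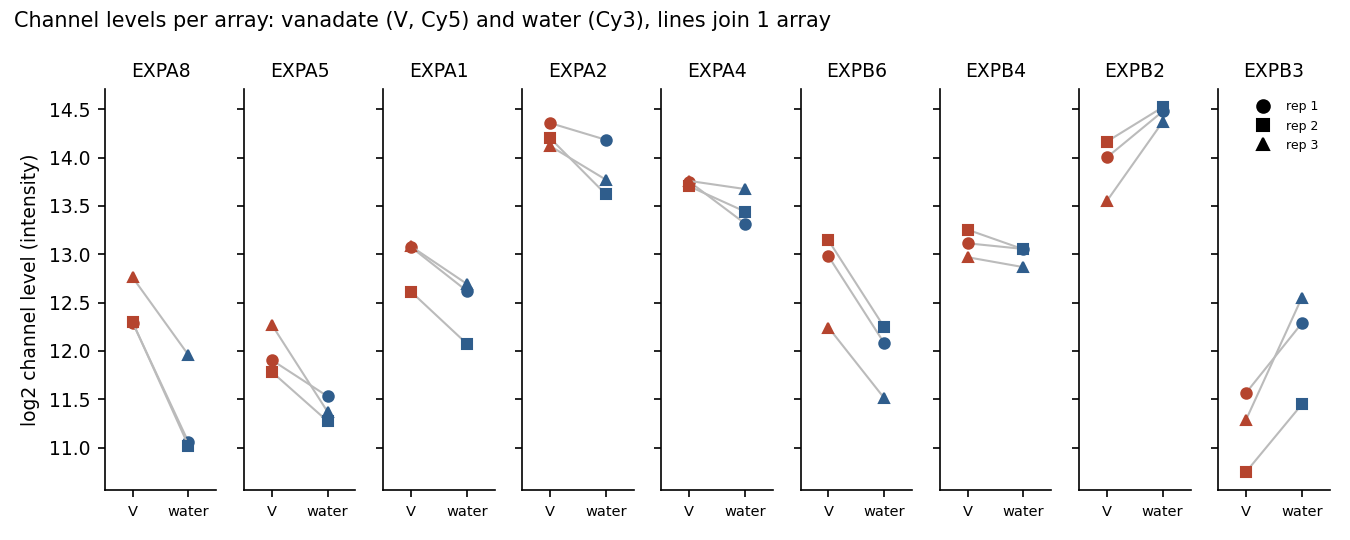
Log2 channel level of the brightest probe of each measured expansin. Vanadate (V, red) is left of water (blue) in each panel, and a line joins the channels of 1 array. Levels are to be read within a panel, since probes differ in how they bind. EXPA8, EXPA5 and EXPA4 lie wholly higher in vanadate and EXPB2 wholly lower, while the other 5 overlap across arrays although every line slopes 1 way.

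By the brightest probe of each locus, levels that do not overlap between vanadate and water were found for 3 expansins on the higher side and 1 on the lower side. Over all tested genes these shares were 23.7% and 16.6%. On the brightest probes of EXPB6 and EXPA1 the channels moved together from array to array, so the levels overlapped while each array gave a ratio of the same sign. These counts depend on the probe. The levels did not overlap on the other probes of EXPB6, EXPA1 and EXPB3, and did overlap on the other probes of EXPA4.

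The 4 beta expansins have consecutive positions on chromosome 10. In the RefSeq table of assembly ASM3414082v1, in which all 10 loci were found by symbol on the chromosome of their locus ID, they stand in the order EXPB6, EXPB2, EXPB3 and EXPB4, with 0 other protein-coding genes between them. Under vanadate EXPB6 rose, EXPB2 and EXPB3 fell, and EXPB4 depended on the probe. EXPB3, EXPB4 and EXPB6 are known as genes raised by gibberellin in internodes of deepwater rice, and EXPB2 for effects on rice root growth. The 4 genes are close paralogs, and cross-hybridisation between them was not tested, since probe sequences were not analysed here.

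EXPB6 (Os10g0555600) had log2 levels of 12.98, 13.14 and 12.24 in vanadate and 12.08, 12.24 and 11.51 in water. Levels were lowest on replicate 3 in both channels. The log2 ratios of 0.90, 0.90 and 0.73 averaged 0.84 ± 0.08 (SE, adjusted p = 0.000393 in limma), or 1.79-fold higher. All 5 of its probes rose, with means of 0.82 to 0.84. The call was lost in 1 of 15 alternatives, that with channels as separate samples (adjusted p = 0.0744 for the brightest probe). That setting ignores that the 2 channels of an array move together. The other probes of EXPB6 kept their calls in it (adjusted p of 0.0118 to 0.0466 in limma).

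EXPB3 (Os10g0555900), the next but one in the cluster, had log2 levels of 11.57, 10.75 and 11.29 in vanadate and 12.29, 11.45 and 12.55 in water. Its log2 ratios of -0.72, -0.70 and -1.26 averaged -0.89 ± 0.13 (SE, adjusted p = 0.002 in limma), or 1.86-fold lower in vanadate. Only 2.10% of tested genes had a lower ratio. The fall was deepest on replicate 3, and within the slide of replicates 1 and 2 the mean was -0.71 (adjusted p = 0.000635). All 3 probes of EXPB3 fell, at -0.82 to -0.89. With channels as separate samples the brightest probe lost its call (adjusted p = 0.0904 in limma). The other probes of EXPB3 kept theirs (adjusted p of 0.00998 and 0.0226).

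EXPB2 (Os10g0555700) had log2 levels of 14.00, 14.16 and 13.55 in vanadate and 14.48, 14.52 and 14.37 in water, which did not overlap. Its log2 ratios of -0.48, -0.36 and -0.82 averaged -0.55 ± 0.11 (SE, adjusted p = 0.00709 in limma), or 1.46-fold lower in vanadate. Within the slide of replicates 1 and 2 the mean was -0.42 (adjusted p = 0.0112). Of its 4 probes 3 fell, at -0.50 to -0.55. The fourth, the probe made for cDNA AK061068, had log2 ratios of 0.05, -0.02 and -0.30 and was not called (mean -0.09 ± 0.10 SE, adjusted p = 0.474). It exceeded the brightest probe by 0.53, 0.34 and 0.52 on replicates 1, 2 and 3. Its mean log2 water level was 11.00, against 14.28 to 14.46 for the 3 probes that fell. With channels as separate samples EXPB2 had an adjusted p of 0.0646.

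EXPB4 gave another split between probes. Its brightest probe, made for cDNA AK103929, had log2 levels of 13.11, 13.25 and 12.97 in vanadate and 13.05, 13.05 and 12.87 in water. The log2 ratios of 0.06, 0.20 and 0.10 averaged 0.12 ± 0.08 (SE, adjusted p = 0.242 in limma) with a 95% interval of -0.07 to 0.31. The 5 other probes of EXPB4 were all called higher, at 0.29 to 0.34. They were dimmer, with mean log2 water levels of 9.46 to 9.88 against 12.99 for the brightest probe. The part of signal level in this split was not tested. As the mean over its 6 probes EXPB4 was called higher at 0.29 (adjusted p = 0.0176). The 5 calls were all lost under median centring, with the processed signals, in the authors' value table, with channels as separate samples and without replicate 2.

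**Figure D3:**
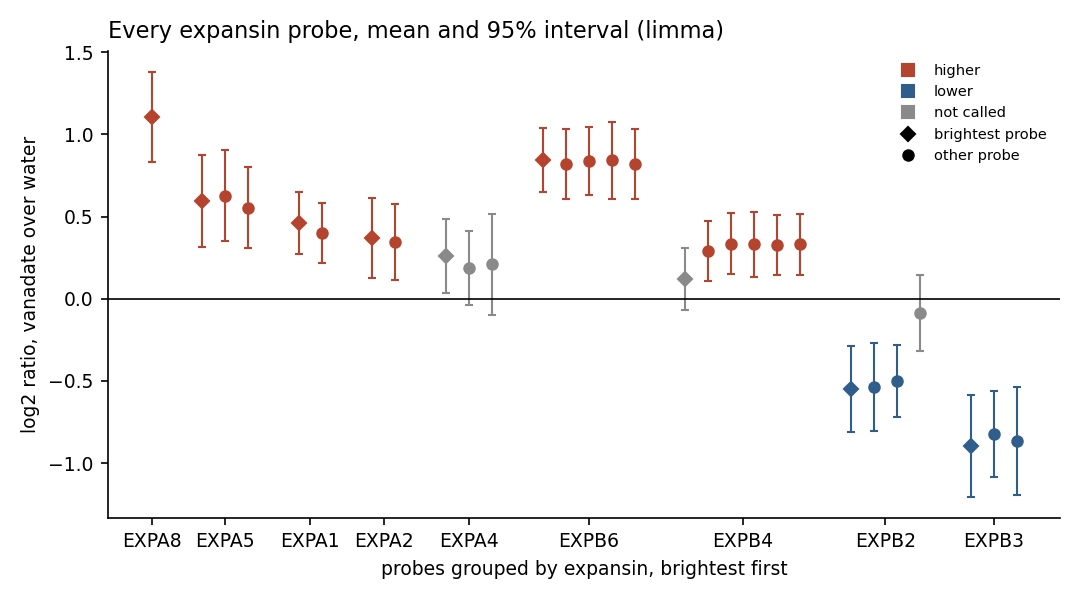
Mean log2 ratio of vanadate over water for each of the 29 expansin probes, grouped by locus and brightest first (diamond). Bars are 95% intervals from limma (n = 3), not adjusted for multiple testing. Probes of EXPB6, EXPB3 and EXPA5 lie close together, while 1 of 4 probes of EXPB2 (-0.09) and 1 of 6 of EXPB4 (0.12) stand apart from the rest of their locus.

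Counted over probes, 18 of the 29 expansin probes rose, 6 fell and 5 were not called, where 28.4% of all tested probes rose and 20.8% fell. The number higher was 11 without replicate 2, 10 with processed signals and in the authors' table and 9 under median centring, and channels taken as separate samples gave 7 higher and 2 lower. Probes of 1 locus measure the same RNA samples and are not replicates of each other. The 5 probes not called were the 3 of EXPA4, 1 of EXPB2 and the brightest of EXPB4. No expansin locus had probes called in opposite directions.

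Genes of the cluster were compared by the brightest probe of each locus, and the gaps depend on that choice. The other probes of EXPB4 averaged 0.29 to 0.34 against 0.12 for its brightest. Probe AK061068 of EXPB2 averaged -0.09 against -0.55 for its brightest. By the brightest probes, the ratio of EXPB6 exceeded that of EXPB3 by 1.62, 1.60 and 2.00 on replicates 1, 2 and 3. The mean gap was 1.74 ± 0.22 (SD, n = 3). EXPB6 exceeded EXPB2 by 1.37, 1.25 and 1.55, and EXPB4 by 0.84, 0.70 and 0.63. The gap between the genes that fell was smaller, EXPB2 lying above EXPB3 by 0.24, 0.34 and 0.45. These differences had the same sign on all 3 arrays, and an exact two-sided sign-flip test of 3 arrays cannot go below p = 0.25. By comparison EXPA8 exceeded EXPA5 by 0.86 and 0.77 on replicates 1 and 2 and fell short of it on replicate 3, with a difference of -0.10.

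**Figure D4:**
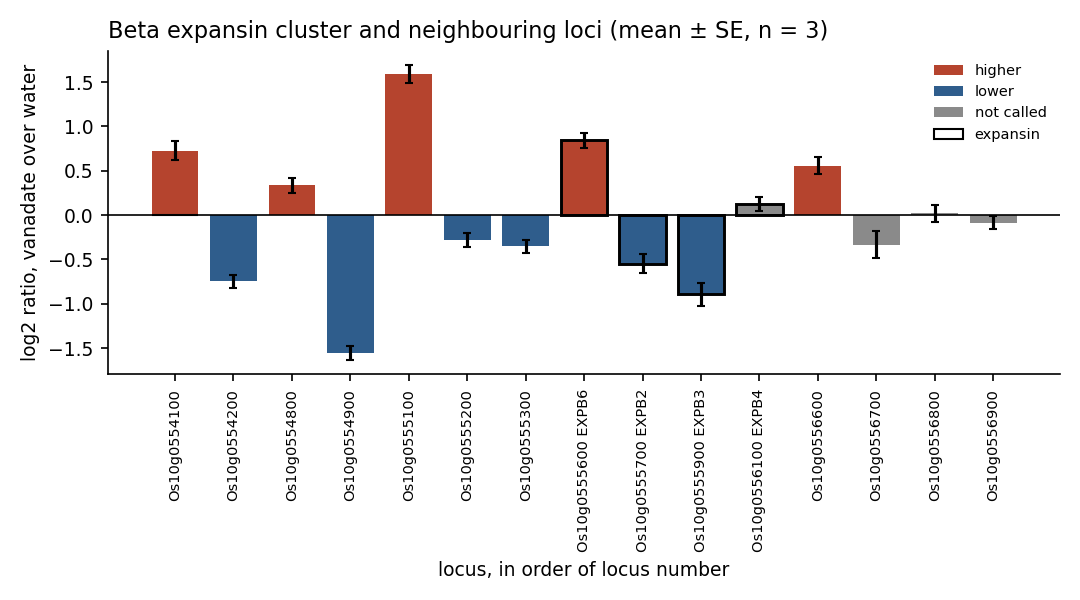
Log2 ratio of vanadate over water (mean ± SE, n = 3) for the 4 beta expansins, outlined, and the 11 tested loci on either side by locus number on chromosome 10. EXPB6 rises to 0.84 beside EXPB2 at -0.55 and EXPB3 at -0.89, and rises and falls also alternate among the loci before the cluster.

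Of the 11 tested non-expansin loci between Os10g0554000 and Os10g0557500, 4 rose, 4 fell and 3 were not called, with a median log2 ratio of -0.08. Of all tested genes 29.1% were called higher and 20.7% lower. The largest changes among the 11 loci were those of Os10g0555100, at 1.59 ± 0.10 (SE), and Os10g0554900, at -1.55 ± 0.08 (SE). The loci with numbers just below the cluster, Os10g0555200 and Os10g0555300, were called lower at -0.28 and -0.35. The vanadate channel of Os10g0555200 was well above background on 1 of 3 arrays, and the locus passed the filter on dim probes through its water channel. Around EXPA8 on chromosome 1, 8 other loci were tested, of which 2 rose and 1 fell, beside the same shares of all tested genes. Os01g0248300 rose by 1.77 ± 0.12 (SE). The other locus called higher, Os01g0248500, had a water channel not well above background on any array. The locus that fell, Os01g0249100, is itself on the list of other expansins below and had log2 ratios of -0.75, -0.62 and -0.70, opposite to EXPA8.

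Other loci of the wall were taken as lists of locus IDs from background knowledge, which no table used here annotates. Of 18 further loci listed as expansins or expansin-like genes, 17 were tested. Under vanadate 7 of them were called higher, 4 lower and 6 were not called, with a median of 0.26. Of all tested genes 29.1% were called higher and 20.7% lower. The range of these further loci was wider than that of the 9 genes above. Os02g0658800 had log2 ratios of 1.73, 1.89 and 1.54 (mean 1.72 ± 0.09 SE) and Os05g0276500 of 1.52, 1.83 and 1.11 (mean 1.49 ± 0.14 SE). The deepest fall was that of Os03g0102700, with -1.68, -1.76 and -1.51 (mean -1.65 ± 0.09 SE).

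Cellulose synthases make the microfibrils on which alpha expansins act. Of 9 listed loci 8 fell, 0 rose and 1 was not called, with a median of -0.53. Of all tested genes 20.7% were called lower and 29.1% higher. The range of the 9 loci was -0.70 to 0.12, led by Os03g0837100 at -0.70 ± 0.09 (SE) and Os05g0176100 at -0.67 ± 0.11 (SE). Of the 7 probes of Os05g0176100, 4 were called lower and 0 higher. Without replicate 1 the number of cellulose synthase loci called lower was 5. Plasma membrane proton ATPases, the pumps that acidify the wall and are targets of vanadate, had 4 listed loci. By the brightest probe of each, 1 fell, 0 rose and 3 were not called, with a median of -0.30. The shares of all tested genes are those given above. The fall, of Os03g0689300 at -0.40 ± 0.11 (SE), was called on 1 of its 3 probes. It was not called without replicate 2 or without replicate 3. Of 3 probes of Os04g0656100, 1 was called higher and 1 lower, and 1 of 4 probes of Os07g0191200 was called higher. The locus listed as a root hair marker, Os10g0578200, averaged -0.28 ± 0.09 (SE) and was not called.

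The genes whose 3 log2 ratios were nearest to those of EXPA8 by root mean square difference were Os12g0197100, Os07g0483500 and Os09g0269500, at 0.047 to 0.061 over 3 arrays. Those nearest to EXPB3 were Os08g0531000, Os01g0840100 and Os01g0805900, at 0.046 to 0.074. With only 3 arrays and 22026 genes, such likeness is a description alone.

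**Figure D5:**
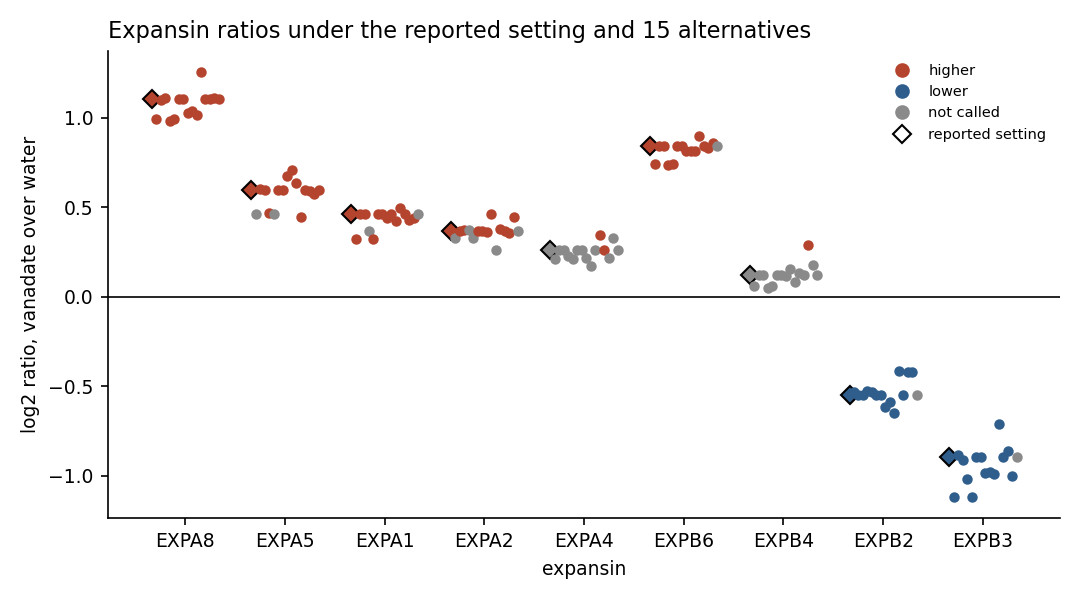
Log2 ratio of vanadate over water for each measured expansin under the reported setting (diamond, leftmost) and 15 alternatives (dots), coloured by the call under that setting. No expansin changes sign, EXPA8 is called under all 15, and EXPA2 loses its call under 5.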

How the data were processed

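Per the file headers, the scanner files hold spot intensity values from the authors' run of Agilent Feature Extraction 10.7.1.1. Median signals and local backgrounds are uncorrected intensities, while processed signals are background-subtracted and dye-normalized, and the scanner's log10 ratio, deposited beside them, was not used. The flags for background, saturation and outliers are 0 or 1, per the file headers. The value table deposited by the authors holds log2 ratios. At least 99.9% of its values lay within 0.001 of log2 processed red over processed green, so it runs as vanadate over water and is not centred, with medians of -0.19, -0.21 and -0.05.

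Here the median signals were corrected with normexp (offset 50) and normalized by loess within each array, with control spots at weight 0, in limma 3.58.1 under R 4.3.3. Spots flagged as outliers were left out (184, 138 and 965 of 43234 gene spots, 0 of them expansin spots), and 0 gene spots were saturated. A probe was tested when it had values on 3 arrays and was well above background in a channel on at least 2. The mean log2 ratio was tested against 0 (lmFit, eBayes, two-sided) and adjusted by Benjamini-Hochberg across every tested probe, at 0.05. Channel levels are log2 values after loess and Aquantile. SE is limma's moderated standard error. Precision is limited by the number of arrays, and the p-values measure only the spread between these 3 arrays. The expansins and the other lists were chosen with earlier results of these data known. Named genes are all members with every probe, up to 2 called loci a direction from each list of wall genes, called neighbours, and the 3 genes most like EXPA8 and EXPB3. Alternatives covered background, normalization, the value table, filters, slide, replicates, the spread, probes per gene and pairing of channels.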

Additional observations from a re-analysis of the deposited data

How the results depend on the processing

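Across 15 alternatives, 9 expansins had 135 values, of which 120 kept their direction and their side of the threshold, 12 lost a call, 3 gained one and 0 turned sign. The 5 expansins called higher were 3 with the processed signals, 3 in the authors' value table, 3 under median centring and 2 with channels as separate samples, where the 2 called lower became 0. The 18 probes called higher were 10, 10, 9 and 7 in the same settings, and the 6 called lower were 2 with channels as separate samples. Leaving out 1 array gave 11 to 18 probes higher and a median log2 ratio of the 9 expansins of 0.26 to 0.46. The AK061068 probe of EXPB2 ranged from -0.16 to 0.017 when 1 array was left out, turning sign without replicate 3. Of the other expansin loci 4 were called higher with channels as separate samples. Cellulose synthases called lower were 5 to 7 without 1 array and 4 with channels as separate samples. Proton ATPases called lower were 0 to 2 without 1 array, 2 under median centring, with slide as a fixed block and with an intensity trend, and 0 as the mean over probes and with channels as separate samples. Over all genes, 6414 were called higher, against 4193 under median centring and 3361 with channels as separate samples, and 4549 lower, against 6835 with the processed signals, 6834 in the value table, 2772 to 3751 without 1 array and 1440 with channels as separate samples. At an unadjusted p under 0.05, 7143 were higher and 5448 lower. The causes were not tested. The reported test is paired, as it takes the ratio within each array, and the setting with channels as separate samples drops that pairing.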
